A study of Mus musculus with 9 samples.

Results

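DNA methylation was compared between donor strains in mouse nuclear transfer embryos, in which an oocyte without its own chromosomes carries the nucleus of a skin fibroblast. The comparison set 2 embryo samples labelled X1 (numbered 3 and 4) against 2 embryo samples labelled BDF1-CAST (numbered 1 and 2), all of the stage labelled NTZy14, so 4 of the 9 libraries of the study are compared. Every CpG with at least 10 calls in each of the 4 samples was kept, where a call is 1 read of 1 CpG, which gave 451238 of the 2200192 CpGs seen in any library. The same minimum applied to tiles, windows of 100 bp whose calls were summed, kept 282831 of 788427 tiles. The level of a CpG, tile or promoter is its methylated calls as a percentage of all its calls.

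Donor nuclei of both groups came from tail-tip fibroblasts of adult male mice, grown to confluence, and recipient oocytes of both groups came from C57/B6 females. Reconstructed embryos of both groups were activated with SrCl2 in the presence of cytochalasin B and cultured in KSOM until the zona was removed, with no further treatment named. The groups therefore share the oocyte strain and differ in the strain of the donor nucleus as labelled. The labels do not say what X1 stands for, what the digits in NTZy14 mean, how many embryos went into a sample, or whether the samples are separate experiments. P-values thus rest on the scatter of these samples alone, part of which may be technical. Donor-type fibroblasts of the same strains (label TT, also 2 samples a strain) served as the starting state, and the labels do not tie an embryo sample to the fibroblast sample of the same number.

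Methyl groups on the cytosine of CpG pairs are copied at each cell division and hold many genes silent in body cells. After fertilization, and after nuclear transfer, the cytoplasm of the egg removes part of this methylation from the chromosomes it receives. Promoters of germline genes, such as Ddx4 and Sycp1, are CpG-rich yet methylated in body cells, and promoters of most other CpG-rich genes are free of methylation at all stages. Imprinted genes carry methylation on the copy from 1 parent only. Reduced representation bisulfite sequencing reads CpGs near MspI cut sites (CCGG), so that CpG-rich sequence is over-represented.

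Promoters on which the results below turn are shown first, as the 250 bases before the RefSeq start site in the promoter table of GRCm38.p6. Capitals mark CpGs that had a call in each of the 4 embryo samples. Ddx4, Sycp1 and Asz1 are the germline promoters whose strains did not overlap, Vmn2r29 is a promoter that differed between the strains in fibroblasts too, and Hoxd12 lies at the longest run of tiles with less methylation in X1. On mm9, the build of the files, the printed bases were placed at chr13:113442519-113442768 (Ddx4, minus strand), chr3:102740024-102740273 (Sycp1, minus strand), chr6:18059062-18059311 (Asz1, minus strand), chr7:7231001-7231250 (Vmn2r29, minus strand) and chr2:74512820-74513069 (Hoxd12, plus strand).
Ddx4: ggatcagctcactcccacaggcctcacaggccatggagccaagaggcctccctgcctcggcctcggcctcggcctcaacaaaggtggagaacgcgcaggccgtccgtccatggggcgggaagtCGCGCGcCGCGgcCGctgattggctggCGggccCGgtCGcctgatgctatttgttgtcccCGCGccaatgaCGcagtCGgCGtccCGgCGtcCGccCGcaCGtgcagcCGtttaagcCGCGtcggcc
Sycp1: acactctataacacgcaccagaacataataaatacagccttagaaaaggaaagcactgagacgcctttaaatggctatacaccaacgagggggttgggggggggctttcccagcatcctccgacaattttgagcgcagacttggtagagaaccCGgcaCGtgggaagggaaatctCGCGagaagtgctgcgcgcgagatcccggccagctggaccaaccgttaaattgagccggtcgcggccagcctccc
Asz1: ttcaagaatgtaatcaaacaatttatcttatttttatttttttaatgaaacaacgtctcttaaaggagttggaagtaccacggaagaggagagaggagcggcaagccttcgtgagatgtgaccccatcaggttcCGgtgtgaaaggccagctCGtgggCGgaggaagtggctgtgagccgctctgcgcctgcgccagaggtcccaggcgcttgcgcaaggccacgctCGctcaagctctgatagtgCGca
Vmn2r29: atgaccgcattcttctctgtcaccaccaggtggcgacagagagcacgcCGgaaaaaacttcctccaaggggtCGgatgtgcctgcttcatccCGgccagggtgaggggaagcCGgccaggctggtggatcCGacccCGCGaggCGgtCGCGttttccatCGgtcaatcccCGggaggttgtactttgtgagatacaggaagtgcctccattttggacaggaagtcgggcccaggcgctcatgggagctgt
Hoxd12: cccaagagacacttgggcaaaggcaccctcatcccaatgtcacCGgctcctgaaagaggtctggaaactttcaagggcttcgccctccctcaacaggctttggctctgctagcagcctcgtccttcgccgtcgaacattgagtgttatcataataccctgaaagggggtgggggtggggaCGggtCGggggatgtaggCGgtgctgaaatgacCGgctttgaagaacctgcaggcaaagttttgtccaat

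The 4 embryo libraries held between 25239364 and 30396273 calls, and the X1 libraries covered fewer CpGs. BDF1-CAST samples 1 and 2 had calls at 1746590 and 1815562 CpGs, and X1 samples 3 and 4 at 1411581 and 1376884. Fibroblasts had the same order, with 1807536 to 1886972 CpGs seen in the 3 BDF1-CAST libraries and 1584331 to 1596888 in the X1 libraries. At the CpGs compared, the depth was alike, with medians of 28 and 24 calls in BDF1-CAST and 27 and 24 in X1. Promoters of the fibroblast genes Col1a2, Vim and Twist2, those of the marker list that were measured, lay at 2.04% or lower in every embryo sample. An unmethylated promoter is not a measure of expression and does not check the cell type.

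X1 embryos carried more methylation than BDF1-CAST embryos, and their CpGs lay more often near the ends of the scale. The mean level over CpGs was 28.5% in both BDF1-CAST samples, and 32.1% and 30.9% in X1 samples 3 and 4. Both X1 samples lay above both BDF1-CAST samples. The strain means were 28.5% ± 0.009 and 31.5% ± 0.837 (SD, n = 2 each), a difference of 3.01 points. With 2 samples against 2 there are 6 assignments of the labels, so the two-sided exact permutation p was 0.333, the smallest this design allows, and no single value here can pass 0.05. The gap between strains was larger than the spread within them, since the lower X1 sample lay further above both BDF1-CAST samples than below its partner. With each CpG weighted by its calls the order did not hold, because X1 sample 4 (27.1%) fell below BDF1-CAST sample 2 (28.5%). The most calls at 1 CpG were 255482 and 252222 in the BDF1-CAST samples and 642441 and 619903 in the X1 samples, and their part in the weighted mean was not tested.

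The extra methylation of X1 lay in CpGs at 80% or more. CpGs at 80% or more made up 14.7% and 13.8% in the BDF1-CAST samples and 22.8% and 21.2% in the X1 samples. CpGs between 20 and 80% made up 24.4% and 26.1% in BDF1-CAST and 18.4% and 18.8% in X1. The share under 20% differed least, at 60.9% and 60.1% against 58.9% and 60% in X1. At exactly 100% lay 1.47% and 1.20% of CpGs in BDF1-CAST and 4.35% and 4.74% in X1. At exactly 0% lay 48.6% and 48.4% against 52.7% and 54.0%. Each of these shares separated the strains without overlap (exact permutation p = 0.333 each), but for the share under 20% the gap between the nearest samples of the strains was smaller than the spread within a strain. With every CpG thinned to 10 calls, the excess of X1 at exactly 100% was 4.90 points and at exactly 0% 1.90 points.

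**Figure D1:**
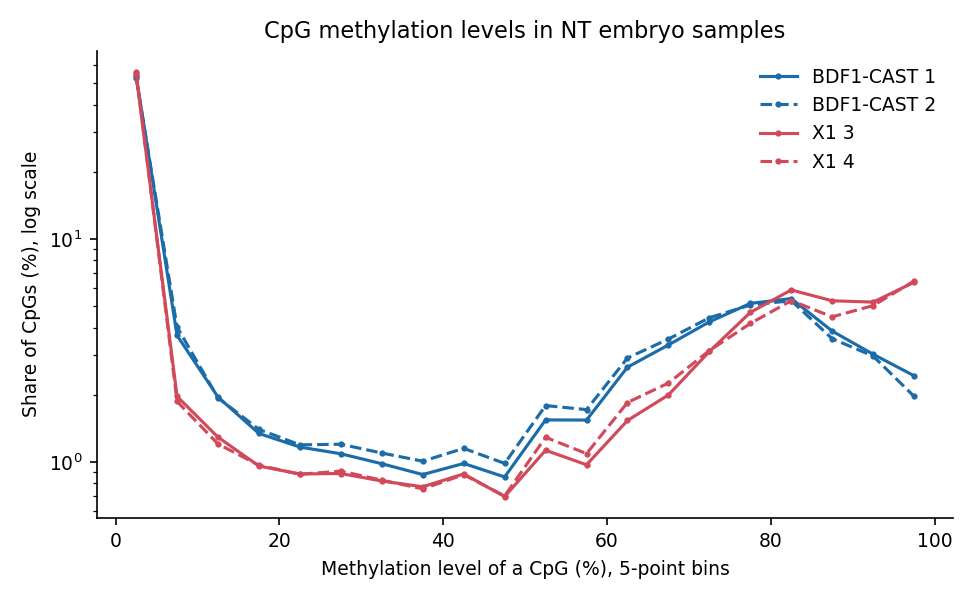
Share of CpGs (y axis, percent, log scale) in 5-point bins of methylation level (x axis, percent) for the 4 embryo samples, solid and dashed lines for the samples of a strain. Between 5 and 80% both X1 lines run below both BDF1-CAST lines, and in the last bin X1 holds 6.39% and 6.47% of CpGs against 2.43% and 1.97%.

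Samples of 1 strain resembled each other more than samples of different strains. Across CpGs, Pearson's r was 0.905 between the BDF1-CAST samples and 0.900 between the X1 samples, and 0.878 to 0.890 in the 4 pairs of different strains. These correlations describe CpGs, which are not independent replicates. The mean absolute difference per CpG was 8.13 and 8.22 points within a strain and 9.37 to 9.51 points between strains. At single CpGs the strain thus added little to the spread between samples.

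The strain difference was small at tiles with 0 to 20% methylation in fibroblasts and larger in every class of fibroblast level above that. Over the 441105 CpGs also measured in fibroblasts, X1 exceeded BDF1-CAST by 2.99 points in embryos and by 1.21 points in fibroblasts (33.2% and 32.4% in BDF1-CAST, 34.2% and 33.8% in X1). Relative to the fibroblast sample of the same number, the mean stood at -4.82 and -3.98 points in the BDF1-CAST embryos and at -2.24 and -2.99 points in the X1 embryos. Tiles were then sorted by their mean level in fibroblasts, a measure that uses no embryo value. In the 102729 tiles at 0 to 20% in fibroblasts the difference between embryo strains was 0.50 points, and it was -0.04 points with calls as weights. In the 109676 tiles at 80 to 100% the embryo samples stood at 71.4% and 71.3% (BDF1-CAST) and 79.8% and 77.3% (X1), a difference of 7.15 points beside 2.53 points in fibroblasts. Of these tiles 36.3% and 34.1% were still at 80% or more in BDF1-CAST embryos, and 60.8% and 55.01% in X1 embryos.

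Tiles with an intermediate level in the donor cells differed most. The 11542 tiles at 20 to 40% in fibroblasts had embryo means of 20.6% and 22.7% in BDF1-CAST and 37.9% and 33.9% in X1, a difference of 14.2 points. Their fibroblast means were 28.2% and 24.7% in BDF1-CAST and 35.8% and 30.3% in X1, a difference of 6.66 points. In this class both BDF1-CAST embryo samples lay below the mean of their strain's fibroblasts and both X1 embryo samples above theirs. Tiles at 40 to 60% differed by 10.0 points and tiles at 60 to 80% by 7.70 points. In all 5 classes both X1 samples lay above both BDF1-CAST samples, with an exact permutation p of 0.333 each.

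**Figure D2:**
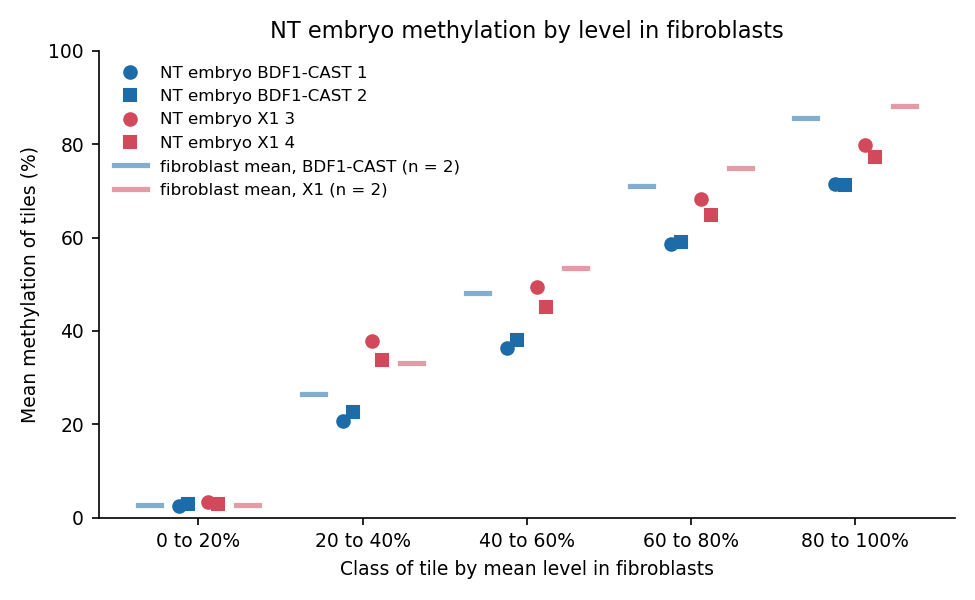
Mean methylation (y axis, percent) of tiles in 5 classes by their level in fibroblasts (x axis), with points for the 4 embryo samples and bars for the fibroblast mean of each strain (n = 2). In the class of 20 to 40% the X1 points (37.9% and 33.9%) lie above their fibroblast bar and the BDF1-CAST points (20.6% and 22.7%) below theirs.

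Dense and sparse methylated sequence both showed the difference, and dense sequence more of it. Among tiles at 60% or more in fibroblasts, grouped by the authors' deposited CpG density score, the embryo difference was 6.13 and 6.17 points in the 2 sparsest classes. It was 7.69 and 7.93 points in the next, 9.48 points at a density of 6 to 8, and 10.5 points at 8 or more. In that densest class BDF1-CAST embryos had means of 70.1% and 71.7% and X1 embryos 83.2% and 79.5%, while the fibroblast strains differed by 2.18 points. Autosomes differed by 7.34 points and the X chromosome by 6.77 points. All 20 chromosomes measured had a higher mean in X1, from 6.77 points on the X to 8.28 points on chromosome 11.

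No single tile passed the test between strains with the embryo samples alone. A quasi-binomial model of methylated and unmethylated calls, with a dispersion moderated by limma, called 0 of 282831 tiles at a Benjamini-Hochberg adjusted p under 0.05 and at least 20 points (0% of tiles), and the smallest adjusted p was 0.268. At an unadjusted p under 0.05 stood 28017 tiles (9.91%), of which 22057 (7.8%) were higher and 5960 (2.11%) lower in X1. Limma on the arcsine of the square root of levels likewise called 0, with a smallest adjusted p of 0.0689 and 39522 tiles (14%) at an unadjusted p under 0.05. Samples of a strain varied widely at single tiles. In the 177513 tiles between 10 and 90% the median absolute difference was 10.8 points between the BDF1-CAST samples, 10.4 points between the X1 samples and 10.8 points between strain means, each the mean of 2 samples. The 126611 tiles with at least 3 CpGs, tested on their own in the quasi-binomial model, gave 9 calls, 8 higher and 1 lower in X1, with a smallest adjusted p of 0.0330.

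Counted without a test, tiles whose strains did not overlap and differed by at least 20 points were mostly higher in X1. There were 29980 such tiles higher in X1 (10.6% of tiles) and 7177 lower (2.54% of tiles), so that 80.7% of them were higher. X1 sample 4 bore most on the count of higher tiles, which was 57517 without it (18.0% of 320064 tiles). For the lower tiles, leaving out BDF1-CAST sample 1, BDF1-CAST sample 2, X1 sample 3 or X1 sample 4 gave 14659, 14193, 18733 and 15327. These were 4.91%, 4.77%, 6.22% and 4.79% of the tiles then compared. Fewer samples then have to be apart, and more tiles reach the minimum depth. Higher tiles remained the larger share, at 69.8% to 79.0%, in each of these counts.

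When the 4 fibroblast samples lent their spread to the same contrast within embryos, 3915 of 279699 tiles were called. This fit assumes that embryos vary no more than cultured fibroblasts. It called 3265 tiles higher in X1 (1.17%) and 650 lower (0.232%), with a smallest adjusted p of 0.00605. Tiles called higher had means of 31.8% and 33.4% in BDF1-CAST embryos and 87.1% and 86.5% in X1 embryos. Tiles called lower had means of 68.8% and 66.5% against 13.9% and 12.8%. The median fibroblast difference was small at both sets, at 5.71 and -2.79 points. Fibroblasts differed by at least 20 points in the same direction at 407 of the 3265 and 108 of the 650 tiles. The number of calls rested on each of the fibroblast samples, and was 160, 198, 388 and 362 without fibroblast sample 1, 2, 3 or 4. Without X1 embryo sample 4 it was 6570.

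The tiles chosen by smallest unadjusted p among those that did not overlap show 2 kinds of pattern. Higher in X1, a tile at chr8:49773501-49773600 had 64.5% and 62.1% in BDF1-CAST and 100% in both X1 samples, on 155, 103, 172 and 32 calls. Its fibroblasts stood at 70.4% and 63.2% (BDF1-CAST) and 54.7% and 52.7% (X1). The X1 embryos were thus fully methylated at a tile that was the less methylated in X1 fibroblasts. A tile at chr1:4922301-4922400, with 4 CpGs, had 75.3% and 66.9% against 100% and 100%. It was among the 9 called with at least 3 CpGs (quasi-binomial adjusted p = 0.0330), as were chr4:151898401-151898500 (68.1%, 58.4%, 100% and 100%) and chr11:50291201-50291300 (70.2%, 66.7%, 100% and 100%). All 8 tiles named in this direction had BDF1-CAST levels between 57.6% and 75.4% and X1 levels of at least 99.1%, each with an adjusted p of 0.268 over all tiles.

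Tiles lower in X1 included some that were nearly full in 1 strain and empty in the other. At chr1:8112901-8113000 the samples had 97.0% and 99.2% (BDF1-CAST) and 57.3% and 69.0% (X1), and X1 fibroblasts were lower as well, at 63.7% and 49.4% against 82.9% and 84.3%. This was the only tile called lower among those with at least 3 CpGs (quasi-binomial adjusted p = 0.0330). A tile at chr14:12640601-12640700 had 97.3% and 100% in BDF1-CAST and 0% in both X1 samples, on 98 and 21 X1 calls. Fibroblasts of both strains were methylated there, at 91.5% and 96.7% (BDF1-CAST) and 88.8% and 90.3% (X1). The same pattern held at chr8:126051801-126051900 (100% and 94.8% against 0% and 0%, fibroblasts 93.1% to 97.9%). It held too at chr12:110788001-110788100 (100% and 97.6% against 0% and 0%, on only 18 and 16 X1 calls), with its middle 8845 bp from a start site of Meg3, an imprinted gene for a non-coding RNA. A count of 0 at these tiles allows a level of up to 3.06% at 98 calls and up to 18.8% at 16 calls, taken as 3 calls of the total and covering counting error only.

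Among the 282831 tiles, those within 10 points of 0 in 1 strain and of 100% in the other numbered 95 with X1 high and 13 with BDF1-CAST high. Of these, 50 and 8 held a single CpG. The median of the lowest sample depth was 14 and 12 calls. One with X1 high, at chr5:108150201-108150300, had 0% and 0.43% in BDF1-CAST and 100% in both X1 samples, with fibroblasts at 9.09% and 2.19% (BDF1-CAST) and 30.9% and 11.98% (X1). X1 embryos were therefore fully methylated where most fibroblast calls of both strains were not. Another, at chr11:108072201-108072300, had 5.56% and 0% against 100% and 100%, with fibroblasts between 79.2% and 92.9%.

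A count at tiles near the middle of the scale in fibroblasts shows how often a sample reached an end. Of 6665 tiles at 40 to 60% in fibroblasts with at least 20 calls, 1.01% and 0.42% lay at 95% or more in the BDF1-CAST embryos and 5.66% and 5.34% in the X1 embryos. At 5% or less lay 9.72% and 6.63% in BDF1-CAST and 8.87% and 13.2% in X1, where the strains overlapped. Both X1 samples thus held more of these tiles at the upper end than both BDF1-CAST samples. The choice of tiles by their fibroblast level keeps fibroblast samples off the ends, so no comparison with fibroblasts is made. Median depth of these tiles was 58, 52, 56 and 46 calls in samples 1 to 4. How many embryos or DNA copies stood behind each library is not given, and its part in these shares was not tested.

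Most non-overlapping tiles stood alone. Joined within 1000 bp, the higher tiles formed 24535 regions, of which 84.1% were 1 tile and 958 held 3 or more. The lower tiles formed 6553 regions, of which 92.1% were 1 tile and 64 held 3 or more. The longest region higher in X1, chr7:14671701-14673800, held 11 such tiles of 13 tested. Its levels were 60.1% and 63.8% in BDF1-CAST and 89.4% and 84.8% in X1, beside 86.3% to 90.5% in all fibroblasts. X1 embryos had kept the fibroblast level there and BDF1-CAST embryos lay below it. The region chr9:80849801-80851700 (9 of 12 tiles) had the same form, with 55.8% and 61.0% against 90.4% and 83.6%. At chr5:111848301-111850100 (9 of 13 tiles) the embryos had 14.1% and 13.5% against 63.9% and 67.4%, and there the fibroblasts also differed, with 30.1% and 35.6% against 63.6% and 50.7%.

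The longest regions lower in X1 began from an intermediate fibroblast level alike in both strains. The first, chr2:74512701-74514600 (9 of 15 tiles), had 27.0% and 39.3% in BDF1-CAST and 5.49% and 3.97% in X1, with fibroblasts at 31.4% to 39.3%. It covers the start of Hoxd12, which encodes a homeodomain factor of limb patterning. A second, chr5:144015001-144017000 (8 of 17 tiles), had 43.8% and 50.6% against 9.51% and 3.58%, with fibroblasts at 33.8% to 36.9%. Its nearest placed start, that of the zinc finger gene Zfp316, lay 15700 bp from its middle and was unmethylated in all embryo samples (0.69% or lower). The third, chr11:22871901-22874200 (6 of 13 tiles), had 55.2% and 51.8% against 13.2% and 23.3%, with fibroblasts at 32.9% to 41.2%. It holds a placed start of Commd1, a gene with an intron that holds the imprinted retrogene Zrsr1. In the latter 2 regions the BDF1-CAST embryos lay above all 4 fibroblast samples and the X1 embryos below them.

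**Figure D3:**
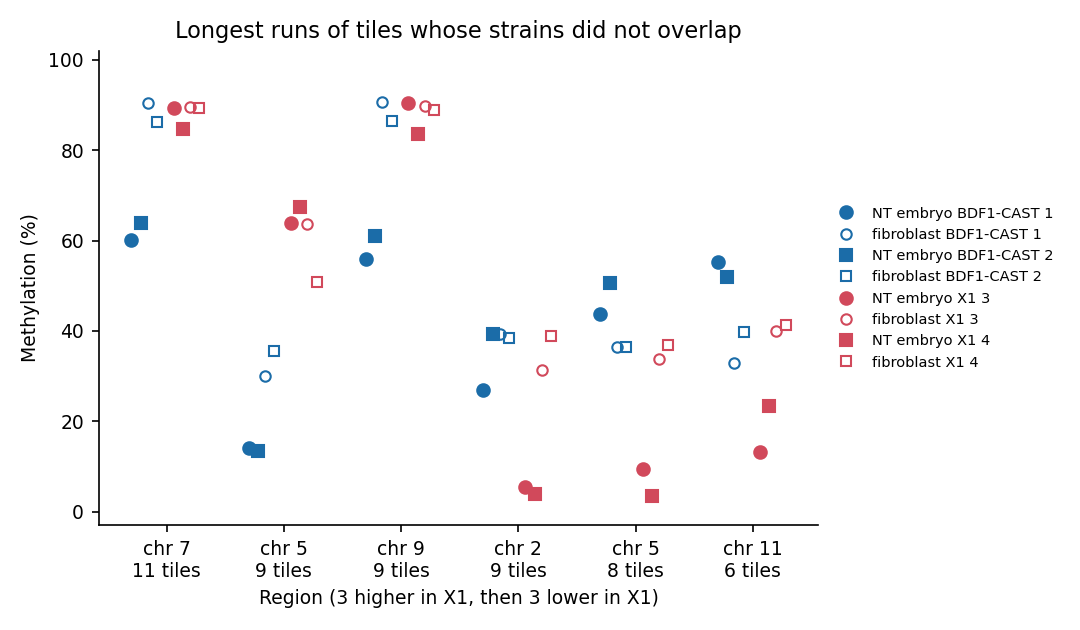
Methylation (y axis, percent) of the 3 longest regions higher in X1 and the 3 longest lower in X1 (x axis), filled symbols for embryo samples and open symbols for fibroblast samples. At the lower regions fibroblasts of both strains lie between 31.4% and 41.2%, with both X1 embryo samples below both BDF1-CAST embryo samples.

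Tiles that differed between the strains in fibroblasts mostly had the same direction in embryos. Their median differences were smaller in embryos, but a choice of tiles by fibroblast values can by itself bring this about. In fibroblasts the quasi-binomial model with limma moderation called 945 tiles higher in X1 (0.338% of 279699) and 316 lower (0.113%). Of the 945, 798 (84.4%) had the same direction in embryos, with a median embryo difference of 23.4 points beside 31.1 points in fibroblasts. Of the 316, 261 (82.6%) had the same direction, with a median of -15.9 points beside -34.3 points. In embryos the strains did not overlap, with at least 20 points between their means in the same direction, at 436 (46.1%) and 122 (38.6%) of them. The background of such tiles was 10.6% and 2.54%, and 55.7% of all tiles had a higher mean in X1 embryos. Opposite differences of that size stood at 23 and 7. Among the 17 tiles of each direction with a fibroblast difference of 60 points or more, 16 kept their direction in embryos.

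**Figure D4:**
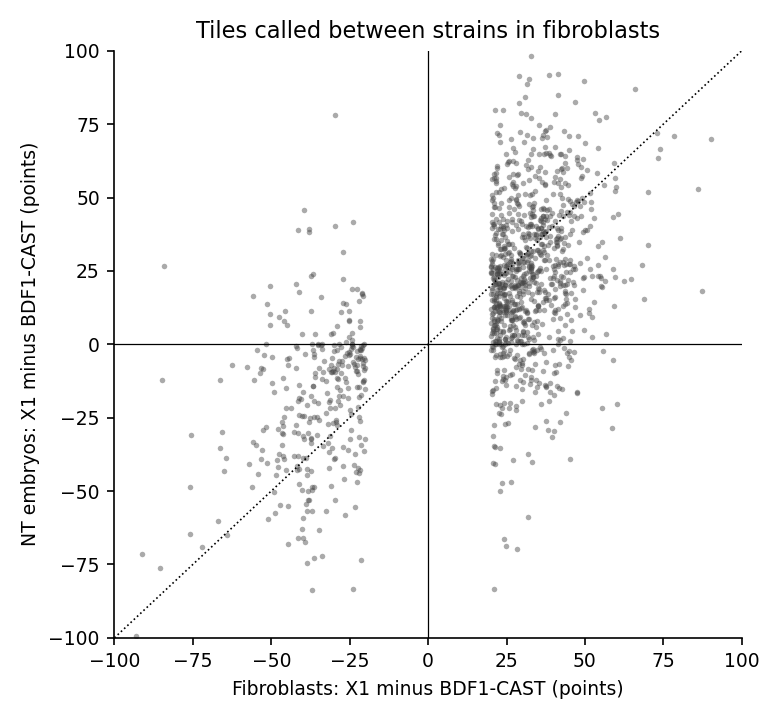
Difference between strains (X1 minus BDF1-CAST, points) in embryos (y axis) against that in fibroblasts (x axis) for the 945 and 316 tiles called in fibroblasts, 1 point a tile, with the dotted line marking equal differences. Points lie mostly in the quadrants of equal sign, 798 on the right and 261 on the left, and many lie nearer 0 in embryos than the line. The choice of tiles by fibroblast values can by itself bring the latter about.

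The lists of the 2 stages differ in length, and their overlap is given as a share of each. Of the 29450 higher tiles of embryos that were measured in fibroblasts, 3163 (10.7%) also did not overlap by 20 points in fibroblasts, which is 40.8% of the 7749 such fibroblast tiles (2.77% of tiles). Of the 7019 lower tiles, 631 (8.99%) did, which is 31.5% of 2001 (0.715% of tiles). The fibroblast difference was under 10 points at 63.7% of the higher and 62.5% of the lower tiles. The strain difference itself was not shown to differ between embryos and fibroblasts at any tile, since the interaction of stage and strain gave 0 calls of 279699 (0%) in the quasi-binomial model with limma moderation, with a smallest adjusted p of 0.177. At an unadjusted p under 0.05 stood 23132 tiles (8.27%), and limma on transformed levels likewise called 0 (smallest adjusted p = 0.0543).

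Promoters were read in windows of 300 bp around RefSeq start sites, placed on the file positions by the spacing of their CpGs. Of 32851 promoters 9122 were placed, and 8577 of these, from 7752 genes, had at least 10 calls in every embryo sample. The quasi-binomial model with limma moderation called 0 of them (0%), with a smallest adjusted p of 0.408. At an unadjusted p under 0.05 stood 928 (10.8%), and limma on transformed levels called 0 with 1881 at an unadjusted p under 0.05. Nearly all were unmethylated, and the 8424 promoters under 20% in fibroblasts had embryo means of 1.76% and 1.73% in BDF1-CAST and 1.14% and 0.98% in X1. The 79 promoters at 50% or more in fibroblasts had 48.2% and 46.5% against 63.8% and 56.0%, a difference of 12.5 points. At both classes the samples of the strains did not overlap, with X1 lower in the first and higher in the second.

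Promoters whose strains did not overlap by 20 points numbered 55 higher in X1 (0.641%) and 17 lower (0.198%). Of the 55, 23 were among the 79 methylated in fibroblasts. The lower count was 34, 39 and 30 without BDF1-CAST sample 1, BDF1-CAST sample 2 or X1 sample 4, and the higher count was 108 without X1 sample 4. With the spread of all 8 samples, the model called 4 promoters, Sycp1 higher (adjusted p = 0.0305) and Shd, Mllt11 and Cdc42se1 lower (adjusted p = 0.0152 each).

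Promoters of germline genes, which are methylated in body cells, were examined as a list. Of 16 genes in the list, 15 were in the promoter table, 9 were placed and 7 were measured at the minimum depth. All 7 had a higher mean in X1, 3 without overlap at 20 points or more, beside 0.641% of all promoters. Among all 79 tested promoters at 50% or more in fibroblasts, 60 had a higher mean in X1 and 23 did not overlap, with a median difference of 13.2 points, and the germline list was not tested against these. A quasi-binomial adjusted p under 0.05 was reached by 0 of them, and an unadjusted one by 2. The median difference was 19.8 points, beside 6.84 points for the same promoters in fibroblasts and -0.56 points over all promoters tested in embryos.

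Ddx4 encodes an RNA helicase of germ cells known as VASA. Its promoter stood at 33.4% and 52.4% in BDF1-CAST embryos and at 96.4% and 79.7% in X1 embryos, on 311, 319, 357 and 207 calls. In fibroblasts it had 78.8% and 74.0% (BDF1-CAST) and 81.5% and 75.9% (X1). The 4 fibroblast samples lay close together, the BDF1-CAST embryos below them, and X1 embryo sample 3 above them. The difference between embryo strains was 45.1 points (quasi-binomial unadjusted p = 0.00785, adjusted p = 0.408). All 8 CpGs of the window with at least 10 calls, at positions -126 to -93 from the start, separated the strains without overlap. They include the run written CGCGCGcCGCG in the sequence above. These neighbouring CpGs can share reads, so they are not 8 independent observations. The promoter was also singled out because its strains did not overlap. By the rule used for tiles, 6.17% of all single CpGs compared were higher in X1 without overlap. Nearest the start, calls were as few as 1 a CpG, and at position -7 BDF1-CAST had 100% and 87.5% against 50% and 100%.

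Sycp1 encodes a protein of the synaptonemal complex, which joins paired chromosomes in meiosis. Its promoter had 50% and 44.8% in BDF1-CAST embryos and 100% in both X1 samples, but the X1 values rest on 12 and 28 calls at 4 CpGs with as few as 3 calls each. A level of 100% on 12 calls allows a true level down to 75%. At those 4 CpGs, the ones called in every sample, BDF1-CAST stood at 81.8% and 21.2%, and 2 of the 4 (positions -91 and -96) had 100% in BDF1-CAST sample 1 as well as in both X1 samples. Fibroblasts stood at 89.5% and 86.8% against 96.4% and 99.2%. Asz1, a gene of the piRNA pathway, had 47.2% and 40.3% against 81.8% and 53.0%, with fibroblasts between 87.4% and 92.4% and the first X1 value on 22 calls. Both X1 samples were above both BDF1-CAST samples at these 2 promoters, though X1 sample 4 was close to BDF1-CAST sample 1 at Asz1.

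The remaining germline promoters varied between the samples of a strain as much as between strains. Mael, another piRNA gene, had 83.3% and 61.0% against 97.8% and 86.2%, a gap without overlap that fell short of 20 points. At its CpGs with a call in each of the 4 embryo samples the strains overlapped, with 88.8% and 62.9% against 97.8% and 87.3%. Slc25a31, a germ cell ADP/ATP carrier, had 55.8% and 62.0% against 97.7% and 57.8%. Hormad1, of the meiotic chromosome axis, had 77.9% and 33.8% against 63.6% and 61.5%. Tex101, a sperm surface protein gene, had 66.0% and 40% against 82.0% and 35.6%. The mean difference of Slc25a31, Hormad1 and Tex101 changes sign when 1 sample is left out. The hexamer CACGTG, an E-box that reads the same on both strands, occurs in 5 of the 7 windows (Ddx4, Hormad1, Mael, Slc25a31 and Sycp1), in 7.15% of all 32851 promoters of that length and in 11.0% of the placed ones. Its CpG is in capitals in the Ddx4 and Sycp1 sequences.

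**Figure D5:**
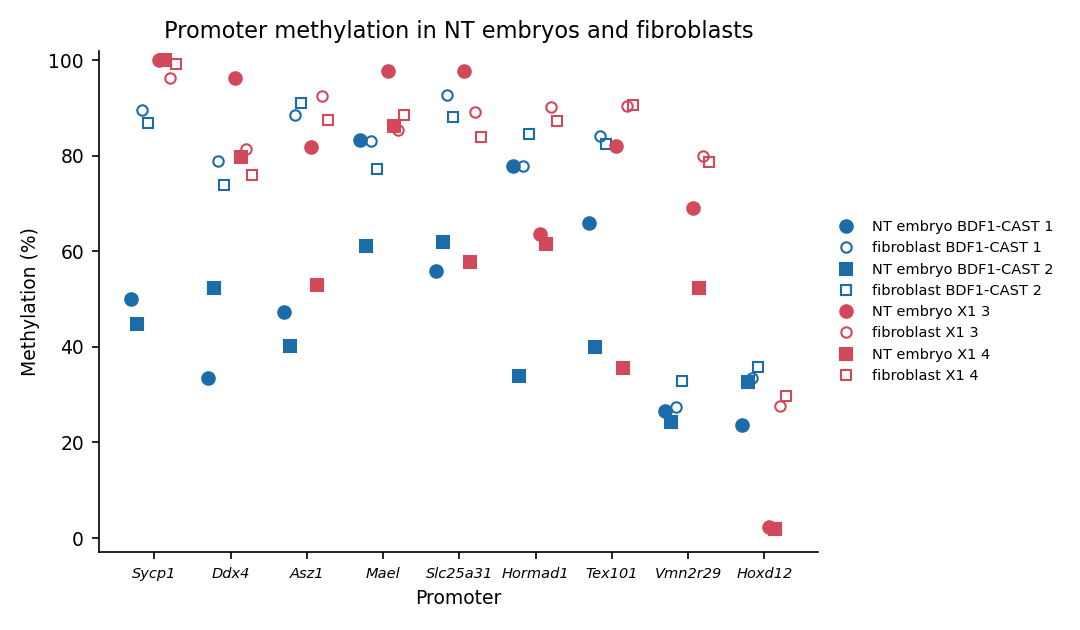
Promoter methylation (y axis, percent) of 7 germline genes, Vmn2r29 and Hoxd12 (x axis), filled symbols for embryo samples and open symbols for fibroblast samples. Sycp1 and Ddx4 show both X1 embryo samples (100% and 100%, 96.4% and 79.7%) above both BDF1-CAST samples (50% and 44.8%, 33.4% and 52.4%), and Hoxd12 the reverse. The X1 values of Sycp1 rest on 12 and 28 calls. At the Sycp1 CpGs called in every embryo sample, BDF1-CAST stood at 81.8% and 21.2%.

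Other promoters were named after their values were seen, and several of them also differed between the strains in fibroblasts. Vmn2r29 belongs to the vomeronasal receptor family, whose members are near copies of each other, so its reads may come from several genes. It had 26.5% and 24.4% in BDF1-CAST embryos and 69.1% and 52.4% in X1 embryos, beside 27.3% and 32.8% against 80.03% and 78.7% in fibroblasts. Tmem267 had 53.5% and 32.3% against 3.71% and 1.07%, beside 27.7% and 51.5% against 1.98% and 7.09% in fibroblasts. The divergent promoter of Mllt11 and Cdc42se1, whose windows share CpGs, had 31.1% and 25.8% against 0% and 0% when read for Mllt11, beside 18.8% and 19.2% against 0.37% and 0.52% in fibroblasts. Over the CpGs with a call in each of the 4 embryo samples, Mllt11 had 11.5% and 17.1% against 0% and 0%, and the difference was -14.3 points in place of -28.4. The printed Mllt11 levels thus rest in part on CpGs that were not read in every sample. At these promoters the order of the strains was the same in fibroblasts and embryos.

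Shd, an adaptor protein gene, had 39.8% and 20% in BDF1-CAST embryos and 0% in both X1 samples (84 and 148 calls, allowing up to 3.57% and 2.03%), while all fibroblasts were at 3.70% or lower. BDF1-CAST embryos were therefore the samples that stood apart. Topaz1, a germ cell gene, had 24.4% and 36.2% against 61.8% and 100%, the X1 values on 34 and 18 calls. D1Pas1, a testis-expressed RNA helicase gene, had 31.6% and 17.8% against 83.3% and 72.7% on 12 to 45 calls. Both also differed in fibroblasts without overlap, Topaz1 with 66.4% and 54.7% against 77.8% and 87.0% and D1Pas1 with 66.2% and 59.4% against 94.3% and 82.9%. Rpl39l, a ribosomal protein gene used in testis, had 37.8% and 39.5% against 92.3% and 66.7%, with fibroblasts at 79.0% to 83.7%. Over the CpGs with a call in each of the 4 embryo samples the differences were smaller, at 19.1 points for Rpl39l (64.8% and 54.4% against 92.3% and 65.2%) and 28.8 points for D1Pas1 (60% and 38.5% against 83.3% and 72.7%). Topaz1 had no such value, so its strains may have been read at different CpGs. In each of these 3 the BDF1-CAST embryos lay below their fibroblasts.

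Hoxd12 was the one promoter of its cluster with a strain difference of this size. It had 23.7% and 32.6% in BDF1-CAST embryos and 2.25% and 1.93% in X1 embryos, on 132 to 259 calls, beside 33.5% and 35.8% (BDF1-CAST) and 27.7% and 29.7% (X1) in fibroblasts. The difference of -26.0 points had a quasi-binomial unadjusted p of 0.00351 and an adjusted p of 0.408. Hoxd13 (1.51%, 5.14%, 1.96% and 12.7% in samples 1 to 4), Hoxd11 (1.49%, 0.47%, 7.09% and 4.00%) and Hoxd9 (3.85%, 4.28%, 5.75% and 3.68%) were low in all embryo samples. Those neighbours had no strain gap of 20 points in either direction. Hoxd10 and Hoxd1, the other 2 measured, also stayed under 10.7% in embryos.

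The promoters of imprinted genes that were measured showed no common direction. Gnas, Grb10 and Igf2 among them lay at 4.70% or lower in every embryo sample, where little could differ. The region at Commd1 and the tile near Meg3, both lower in X1 embryos, lie outside these windows. Of 28 genes 22 were in the promoter table, 8 were placed and 7 measured, of which 4 had a higher mean in X1, 0 did not overlap by 20 points, and 1 (Gnas) had an unadjusted p under 0.05. The median difference was 1.24 points. Their samples scattered within strains instead. Mcts2, a retrogene expressed from the paternal copy, had 63.6% and 34.6% in BDF1-CAST and 6.72% and 66.9% in X1, beside 37.4% to 68.8% in fibroblasts, and its mean difference was -12.3 points, or -19.2 over CpGs with a call in each embryo sample. Plagl1, a zinc finger gene, had 24.5% and 21.1% against 27.97% and 5.07%, and Igf2r, the receptor that clears IGF2, 19.3% and 13.2% against 32.1% and 11.1%. Zdbf2 had 7.22% and 2.95% against 30.1% and 5.40%. In each of these 4 the X1 samples differed from each other by more than the strain means did, and the direction for Mcts2, Plagl1 and Igf2r depends on which sample is left out.

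The remaining lists were nearly free of methylation in both strains. All 7 promoters measured of the methylation machinery lay at 11.9% or lower in every embryo sample, with a median difference of -0.60 points. Dnmt3b, a de novo methyltransferase gene, had 6.10% and 5.97% in BDF1-CAST against 0% and 0.54% in X1 (quasi-binomial unadjusted p = 0.0171, adjusted p = 0.408). Of 5 pluripotency promoters 3 had a higher mean in X1, with a median difference of 0.91 points. Pou5f1, which encodes OCT4, had 24% and 0% against 50% and 6.67% on 10 to 25 calls, a depth at which no order can be read. The 3 histocompatibility promoters measured (H2-D1, H2-DMa, H2-Q4), of a family that varies between mouse strains, lay at 3.59% or lower. The 3 housekeeping promoters lay at 1.47% or lower. Of the markers of other cells the embryo samples could hold, Foxl2 (granulosa cells) and Krt18 (epithelium) lay at 2.47% or lower, and no oocyte or leukocyte marker was measured.

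Some CpGs were seen in 1 strain only. With at least 10 calls in both samples of a strain and none in the other, there were 18463 CpGs seen in BDF1-CAST alone (2.68% of the 688273 with that depth) and 1152 in X1 alone (0.195% of 590177). Of the 18463, 12806 also had no call in the X1 fibroblasts and 3371 had at least 10 calls in both. Of the 1152, 500 had no call in the BDF1-CAST fibroblasts. Mean levels at these CpGs were 33.8% and 34.9% in the BDF1-CAST samples and 53.6% and 52.4% in the X1 samples. They enter no comparison of single CpGs above, but their calls count in the tiles and promoters that hold them. Over CpGs with a call in each of the 4 embryo samples, non-overlapping tiles numbered 28732 higher (10.3% of tiles) and 7071 lower (2.54%) in X1. Whether sequence differences between the strains move measured levels at other CpGs was not tested.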

How the data were processed

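Libraries were made by reduced representation bisulfite sequencing. The authors deposited counts of all calls and of methylated calls per CpG for each library, per the deposited description of the files, with positions on mm9 as the submitters' processing notes state; the aligner and the caller of methylation are not given in the sources at hand. The authors also deposited a table of 100 bp tiles with methylation as a fraction and CpG density as a score, of which the density was used and 19 columns of other samples were not. For the embryo samples, its fractions and those computed here from CpGs with at least 5 calls differed by at most 0.001 in at least 99.5% of tiles. Tile levels reported above sum all calls of a tile, without that minimum per CpG, and were not compared with the authors' fractions.

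Fibroblast BDF1-CAST libraries 1 and 1a were summed, since the deposited description marks 1a as a repeat run. Calls were summed per tile or promoter. The quasi-binomial model used the 4 embryo samples, with a dispersion of 1 or more, moderated by limma 3.58.1 (R 4.3.3) towards a prior that follows tile depth within classes of mean level, an F test and Benjamini-Hochberg adjustment; the script was tested on simulated data. This prior was chosen after seeing the data. Single values were tested by exact permutation over samples. Sample numbers were not used as pairs in the main models (see the closing section). The change of the mean over CpGs was described relative to the same-numbered fibroblast sample, although the labels do not link them.

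No mm9 annotation was used. RefSeq promoter windows (GRCm38.p6, 250 bases before to 50 after the start) were placed where the spacing of 8 consecutive CpGs occurred once on the gene's chromosome. As a check, searches on 19 other chromosomes placed 59 in all, 3.11 a chromosome. This placement was chosen after seeing the files. Members and gene lists were chosen with earlier results of these data known. Named tiles are, in each direction, the 8 with the smallest unadjusted p among non-overlapping tiles of at least 20 points and 2 CpGs, then the 3 longest regions.

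Alternatives were other depths, tiles, weights and tests, each sample left out, and, added after seeing the data, thinning of CpGs to 10 calls, 1 prior for all tiles and promoters restricted to CpGs seen in all 4 samples. Limits at 0% or 100% cover counting error only, since reads carry no molecular identifiers.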

Additional observations from a re-analysis of the deposited data

Results flagged for a closer look

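The following results had both embryo samples of 1 strain above the mean of that strain's fibroblasts and both of the other strain below theirs. Such a pattern was looked for in 45 tiles, promoters, regions and classes and met in 20. The tiles, the regions and several of the promoters had been chosen because their embryo strains lay apart. That choice makes the pattern likelier, so the count is not a rate over all tiles or promoters. The difference was not tested at any single item beyond the interaction model, which called 0 tiles. Values are the change from fibroblasts to embryos in X1 minus that in BDF1-CAST, in points.

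Among promoters the values were 42.8 for Ddx4 (BDF1-CAST lower than fibroblasts by 33.5 points, X1 higher by 9.31) and 43.0 for Sycp1, whose X1 samples rest on 12 and 28 calls. At the Sycp1 CpGs called in every embryo sample, BDF1-CAST sample 1 stood at 81.8% and sample 2 at 21.2%. In the class of tiles at 20 to 40% in fibroblasts the value was 7.56. Regions gave 27.5 at chr5:111848301-111850100, -39.6 at chr5:144015001-144017000 and -39.6 at chr11:22871901-22874200. In the latter 2 the BDF1-CAST embryos lay above and the X1 embryos below fibroblasts of both strains.

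Of the named tiles, 8 had more methylation in X1 embryos, with X1 samples at or near 100%. Their values were 49.7 (chr8, start 49773501), 24.1 (chr12, start 120791501), 12.02 (chr1, start 4922301), 31.0 (chr6, start 48241801), 24.4 (chr13, start 99431401), 33.4 (chr11, start 50291201), 30.4 (chr4, start 151898401) and 33.2 (chr12, start 6512801). Another 6 had less in X1 embryos, with BDF1-CAST samples at 87.5% or more. Their values were -35.1 (chr15, start 62904501), -41.6 (chr3, start 88702601), -91.0 (chr12, start 110788001), -101.7 (chr17, start 8505401), -94.2 (chr14, start 12640601) and -81.7 (chr5, start 135954301).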

How the results depend on the processing

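Directions held for the mean and the shares of CpGs in all alternatives run, with the mean difference between 2.40 and 4.29 points. Named tiles kept their direction in 84 of 84 comparisons without 1 sample, which their choice as non-overlapping tiles fixed in advance. Promoters kept it in 136 of 144, where those chosen as non-overlapping likewise could not change direction. The exceptions, as lowest and highest difference without 1 sample, were Igf2r (-5.13 and 15.8), Mcts2 (-42.4 and 17.8, with 2.19 without BDF1-CAST sample 1), Plagl1 (-17.8 and 5.13), Hormad1 (-15.3 and 28.7), Slc25a31 (-1.03 and 38.8) and Tex101 (-17.4 and 29.0, with -7.19 without BDF1-CAST sample 2). With calls as weights the class at 0 to 20% in fibroblasts was at -0.0378 points. Calls of tiles stayed at 0 under all alternatives but 2: tiles with at least 3 CpGs gave 9 and the fit of all 8 samples 3915. Without 1 embryo sample, where the lone sample is assumed to vary like the pair, 0 tiles were called. Non-overlapping tiles lower in X1 numbered 11510 at 5 calls (3.24% of tiles). At 20 calls higher and lower tiles numbered 15029 and 3315 (7.68% and 1.69% of tiles). With at least 3 CpGs they numbered 10660 and 1715 (8.42% and 1.35%). Both pairs of shares lie below the 10.6% and 2.54% at 10 calls and any number of CpGs. Without 1 sample the counts ranged from 42830 to 57517 higher (14.3% to 18.0% of tiles) and from 14193 to 18733 lower (4.77% to 6.22%). Tiles called in fibroblasts numbered 452 higher and 165 lower at 20 calls, and 581 and 199 without library 1a. CpGs seen in 1 strain numbered 43273 (BDF1-CAST) and 2890 (X1) at 5 calls. The X1 count was 500 with no call in the other fibroblasts. The cause was not tested. With the sample number as a replicate block, the interaction gave 0 calls (smallest adjusted p = 0.639, 7.23% of tiles at an unadjusted p under 0.05), as without it. Deviations of same-numbered samples correlated at -0.0289 (samples 1 and 2) and 0.00746 (samples 3 and 4). Such values cannot show whether the samples were linked. At the minimum of 10 calls a level moves in steps of 10 points.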
